A study of Mus musculus with 6 samples.

Results

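Receptors that couple to heterotrimeric G proteins and answer to lipids, extracellular nucleotides or ligands still unknown were followed through the transcriptomes of a pair of sorted mouse bone marrow progenitors. The members were all genes of the deposited count table whose symbol is Gpr followed by a number or starts with P2ry, S1pr, Ptger, Lpar, Cysltr or Adora. This gave 86 of the 22271 genes in the table: 56 Gpr, 9 P2ry, 5 S1pr, 4 Ptger, 6 Lpar, 2 Cysltr and 4 Adora genes. RNA was sequenced from wild-type C57BL/6JRj marrow cells that the labels call CD27 high MODP (3 libraries) and CD27 low MOP (3 libraries). The series' title places a bipotent progenitor of macrophages and osteoclasts below a progenitor that these cells share with dendritic cells, and the design compares the populations directly. The age of the mice, the sort markers other than CD27 and the pooling of animals are not given in the labels, so a p-value here reflects how far the 3 libraries of a group spread, a spread that may be technical in part.

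Receptors of this kind sit in the plasma membrane and, once a ligand binds, release a G protein that raises or lowers cyclic AMP, opens calcium stores or reorganizes the cytoskeleton. In marrow and in myeloid cells they are known for steering migration between blood, marrow and bone surface (S1pr1, S1pr2 and the oxysterol receptor Gpr183), for sensing damage through nucleotides and adenosine, and for tuning inflammation through prostaglandin E2 and leukotrienes. The name Gpr is historical: Gpr89, Gpr107, Gpr108, Gpr137, Gpr155 and Gpr180 encode membrane proteins of the Golgi, the lysosome or other sites that are not classical G protein receptors, so the rule takes in 6 genes that its title does not describe.

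Library totals ran from 10701425 to 15892640 counts, and 1 CPM (the count scaled to a common library size, with TMM factors) stood for 10.6 to 15.6 reads. The sort marker Cd27 ranged from 35.4 to 38.9 CPM in the MODP libraries and from 3.52 to 4.57 CPM in the MOP libraries, and Csf1r, which encodes the M-CSF receptor of the macrophage lineage, at 263 to 346 and 472 to 564 CPM. MOP libraries also held more RNA of basophil and mast cell genes. The 13 listed genes in the table had sums between 582.4 and 1194.1 CPM in MODP and between 3475.7 and 5441.9 CPM in MOP. Prss34 made up most of the sum in MOP (1792.2 to 2923.2 CPM) but not in MODP (146.6 to 503.9 CPM). Of 11 tested genes 10 rose, while the mast cell protease genes Cma1 and Tpsb2 were at or near 0 in every library. Sums went the other way, with no overlap of the groups, for T and NK cell genes (241.2 to 320.9 CPM in MODP, 85.04 to 120.6 CPM in MOP, 8 of 13 tested genes lower), plasmacytoid dendritic cell genes (236.2 to 284.8 and 166.7 to 193.2 CPM, 5 of 8 lower) and stem and early progenitor genes (891.8 to 1021.0 and 349.2 to 387.6 CPM, 10 of 12 lower). Nkg7 alone supplied most of the T and NK cell sum: 203.6, 237.4 and 239.7 CPM for MODP replicates 1 to 3. For MOP replicates 1 to 3 its share was 65.02, 99.25 and 92.3 CPM. Every other gene on that list stayed at or below 15.17 CPM, the value of Il7r in MOP replicate 1. The part of the genes on these lists in the falls of the 5 lower members was not tested. Replicate 2 of each group stood apart from the other libraries of its group. Neutrophil genes summed to 17363.4 CPM in MODP replicate 2 and 12345.3 CPM in MOP replicate 2 against 2433.0 to 5382.8 CPM elsewhere, and the collagen genes Col1a1 and Col1a2 stood at 1726.8 and 1355.5 CPM in MODP replicate 2 and at 191.7 and 174.7 CPM in MOP replicate 2, against at most 49.2 CPM elsewhere. The endothelial genes Kdr and Cdh5 were highest in MOP replicate 2, at 3.52 and 3.78 CPM, and Pecam1 was lowest in MODP replicate 2.

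All 86 members had at least 1 read, as every gene of the table did, and 63 had reads in all 6 libraries. Together they took 0.0665% to 0.0701% of the reads of MODP libraries and 0.0871% to 0.0943% of those of MOP libraries. The count filter kept 51 members for the test. Of these, 22 rose and 5 fell from MODP to MOP (quasi-likelihood test of edgeR, p adjusted by Benjamini-Hochberg over every gene tested, threshold 0.05), and 24 did not pass. Among all 12850 tested genes, 16.3% were higher and 14.9% were lower, against 43.1% and 9.80% of the tested members; under upper-quartile scaling, 1692 genes were higher and 2452 lower in place of 2095 and 1913, and 17 members were higher and 5 lower. Changes of 2-fold or more made up 11 of the rises and 1 of the falls, against 3.84% and 3.00% of all tested genes. The median log2 fold change, MOP minus MODP, was 0.38 over the tested members and -0.01 over all tested genes. A gene can pass the filter through 1 group alone, so these shares describe the tested members and not the 35 below the filter. Without MOP replicate 1, 14 members were higher and 4 lower, beside 1281 and 1036 of all tested genes. Without replicate 2 of both groups the counts were 21 and 4, beside 2361 and 2001.

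**Figure D1:**
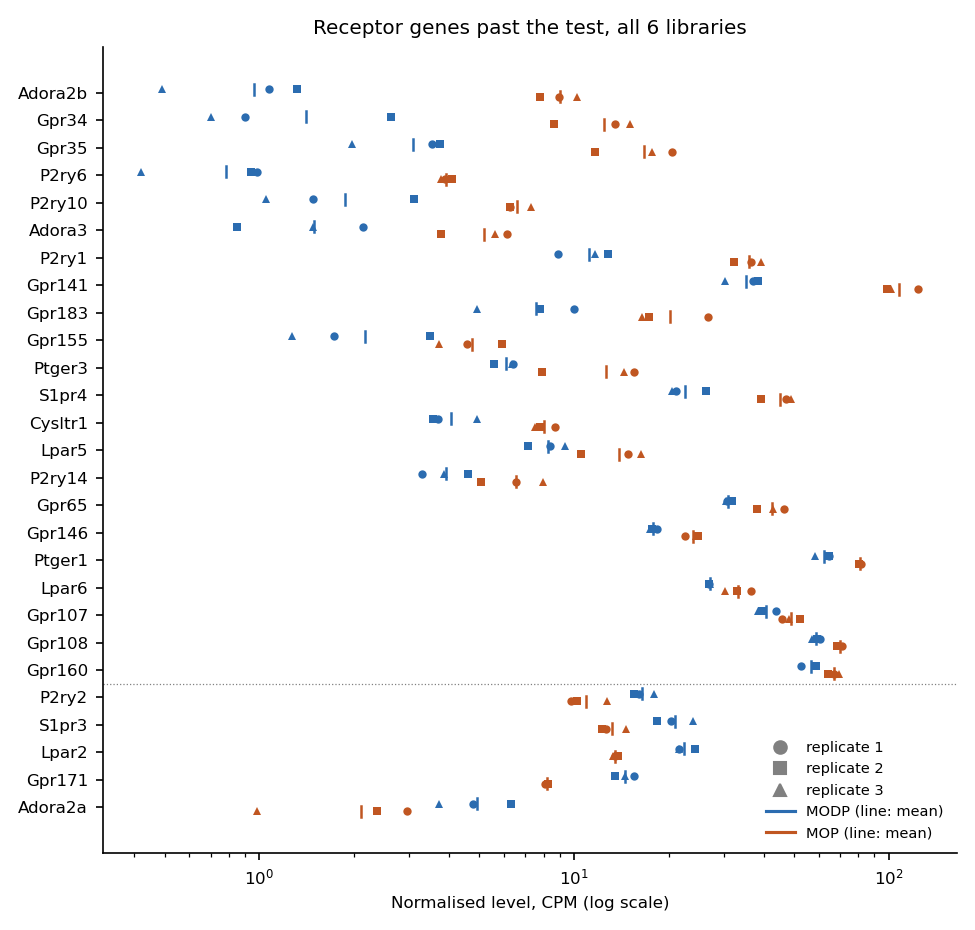
CPM of the 27 receptor genes past the test (horizontal axis, log scale) in each of 3 MODP libraries (blue) and 3 MOP libraries (orange), with the group mean as a short line and genes ordered by log2 fold change; the 5 genes under the dotted line were lower in MOP. No gene of the 27 had overlapping groups, which adds no support, since the genes were picked by a test on these same libraries. Over all tested genes, 23.8% did not overlap with MOP higher and 23.8% with MOP lower. Adora2b is at the top (0.492 to 1.32 CPM in MODP, 7.81 to 10.2 CPM in MOP) and Adora2a at the bottom.

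Levels were compared between genes as CPM per kilobase of exon. In MODP the highest 5 were Gpr108, Gpr65, Gpr160, Ptger1 and Gpr180, at 20.6, 14.9, 13.4, 11.4 and 11.1 CPM per kilobase, and in MOP they were Gpr108, Gpr65, S1pr4, Gpr141 and Gpr160, at 24.4, 20.5, 18.9, 18.1 and 15.8 CPM per kilobase. S1pr4 moved from place 6 to 3 in this order, Gpr141 from 10 to 4, P2ry1 from 23 to 9, Gpr34 from 34 to 14 and Adora2b from 37 to 16. Gpr171 went the other way, from place 9 to 19.

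The promoters of 6 members are shown because, among the called members with a single listed start in RefSeq, their genes had the 4 largest rises and the 2 largest falls, the falls last. Each line gives the 250 bases before the RefSeq start, 5′ to 3′ on the strand of the gene; RefSeq's build is GRCm38.p6, while the authors' own build was not given in the sources used here. Capitals mark matches, on either strand, to any of 5 motifs of transcription factors known in blood cells. The ETS motif of the PU.1 type was searched as GAGGAAG. For GATA factors the letters were AGATAA, for RUNX factors they were TGTGGT, and for AP-1 they were TGANTCA. The C/EBP motif was searched as TTGCNNAA, and no motif contains another.
Adora2b (GRCm38.p6, chr11:62248734-62248983, plus strand): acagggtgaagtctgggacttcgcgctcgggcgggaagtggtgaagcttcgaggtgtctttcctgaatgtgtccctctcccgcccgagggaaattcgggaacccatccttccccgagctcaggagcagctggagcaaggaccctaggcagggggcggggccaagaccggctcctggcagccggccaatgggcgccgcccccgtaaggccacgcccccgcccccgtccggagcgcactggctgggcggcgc
Adora3 (GRCm38.p6, chr3:105904171-105904420, plus strand): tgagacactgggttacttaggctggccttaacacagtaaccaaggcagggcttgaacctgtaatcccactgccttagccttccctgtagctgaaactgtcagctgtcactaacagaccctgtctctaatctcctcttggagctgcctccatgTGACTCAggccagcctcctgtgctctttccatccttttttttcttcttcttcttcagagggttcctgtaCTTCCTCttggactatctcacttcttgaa
P2ry1 (GRCm38.p6, chr3:61002535-61002784, plus strand): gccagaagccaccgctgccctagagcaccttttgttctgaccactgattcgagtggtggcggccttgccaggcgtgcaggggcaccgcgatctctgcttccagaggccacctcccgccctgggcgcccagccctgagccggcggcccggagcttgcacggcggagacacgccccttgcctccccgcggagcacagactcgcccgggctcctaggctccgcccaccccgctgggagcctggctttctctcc
Gpr141 (GRCm38.p6, chr13:19824258-19824507, minus strand): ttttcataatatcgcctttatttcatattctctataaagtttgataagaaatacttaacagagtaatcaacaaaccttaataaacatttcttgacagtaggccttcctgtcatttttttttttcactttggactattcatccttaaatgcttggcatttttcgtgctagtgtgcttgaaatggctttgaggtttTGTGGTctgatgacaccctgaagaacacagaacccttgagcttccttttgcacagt
Lpar2 (GRCm38.p6, chr8:69822315-69822564, plus strand): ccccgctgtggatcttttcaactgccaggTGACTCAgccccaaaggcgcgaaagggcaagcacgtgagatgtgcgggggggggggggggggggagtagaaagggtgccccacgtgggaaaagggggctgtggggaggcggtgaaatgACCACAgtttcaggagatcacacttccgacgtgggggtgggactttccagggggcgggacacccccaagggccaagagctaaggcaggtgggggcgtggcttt
S1pr3 (GRCm38.p6, chr13:51408368-51408617, plus strand): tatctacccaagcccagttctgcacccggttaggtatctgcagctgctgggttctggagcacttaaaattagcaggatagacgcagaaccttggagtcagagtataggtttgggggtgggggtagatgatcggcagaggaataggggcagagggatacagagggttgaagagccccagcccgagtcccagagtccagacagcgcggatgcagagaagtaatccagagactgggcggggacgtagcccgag

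Adora2b and P2ry1, both higher in MOP, have windows rich in G and C, with 22 and 20 CG dinucleotides against a median of 6 over all 32851 RefSeq windows, and hold none of the 5 motifs. Gpr141, also higher, has 2 CG dinucleotides in a window with 34.8% G and C, and a RUNX match that begins 56 bases before the start. In Adora3 an AP-1 match begins 98 bases and an ETS match 29 bases before the start. The window of Lpar2, which was lower in MOP, holds an AP-1 match and a RUNX match, beginning 221 and 103 bases before the start, and that of S1pr3, also lower, holds none of the 5. A RefSeq window was found for 41 of the 51 tested members; Gpr34, P2ry6, Gpr171, Adora2a, Cysltr1 and Ptger1 were the called members without one. Over the 27 windows of 18 higher members, the ETS motif occurred in 18.5%, the GATA motif in 14.8%, the RUNX motif in 22.2%, the AP-1 motif in 18.5% and the C/EBP motif in 14.8%. Over all RefSeq windows of this length the shares were 10.6%, 9.99%, 14%, 6.75% and 9.56%. These shares rest on 4 to 6 windows each and some genes have several windows, so they are a description of the letters and not of binding.

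**Figure D2:**
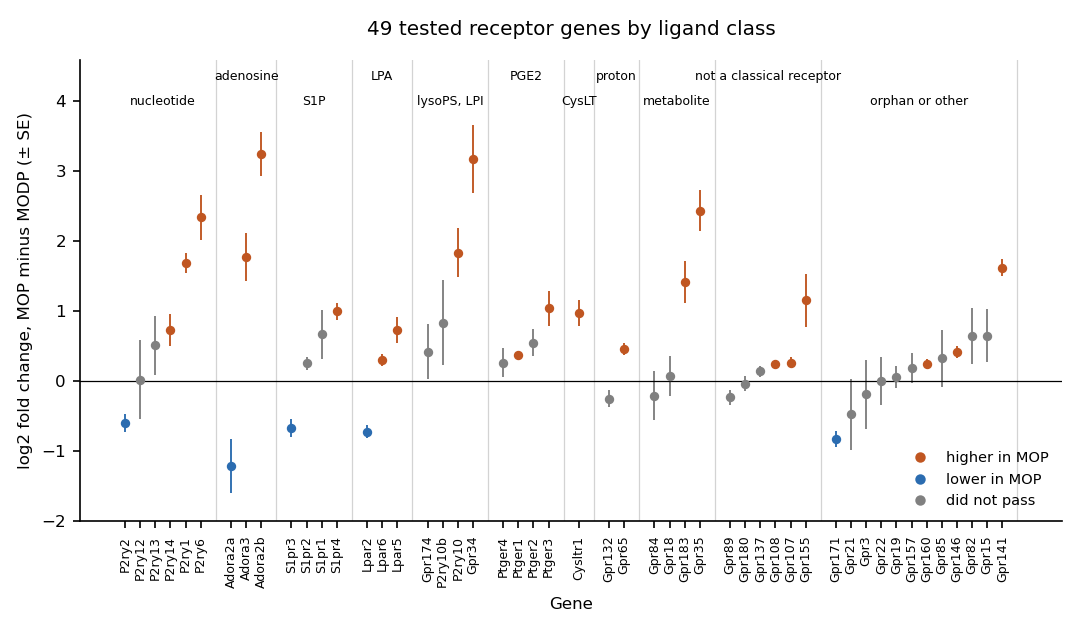
Log2 fold change, MOP minus MODP, with its standard error (vertical axis) for 49 of the 51 tested members, grouped by known ligand (horizontal axis) and coloured by the result of the test. The nucleotide, adenosine, sphingosine 1-phosphate (S1P) and lysophosphatidic acid (LPA) classes each hold 1 gene that was lower in MOP beside at least 1 that was higher.

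Receptors for nucleotides changed in both directions. P2ry1, the receptor for ADP that triggers calcium release in platelets, rose in MOP together with P2ry6, the receptor for UDP, and P2ry14, the receptor for UDP-glucose, whereas P2ry2, the receptor for ATP and UTP, fell. In MODP replicates 1 to 3, P2ry1 measured 8.88, 12.8 and 11.7 CPM, and in MOP 36.4, 32.2 and 39.4 CPM, 3.24-fold higher (log2 1.69 ± 0.14 SE, edgeR adjusted p = 0.00029). The lowest MOP library stood well above the highest MODP library. P2ry6 was nearly silent in MODP, at 0.987, 0.941 and 0.422 CPM (12, 10 and 6 reads), and stood at 3.90, 4.10 and 3.79 CPM in MOP, with a log2 fold change of 2.34 ± 0.32 (SE, edgeR adjusted p = 0.0015). P2ry14 was at 3.29, 4.61 and 3.87 CPM in MODP and 6.55, 5.06 and 7.96 CPM in MOP (log2 0.73 ± 0.23 SE, edgeR adjusted p = 0.040). Its groups were close, with MOP replicate 2 only just above MODP replicate 2.

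P2ry2 was at 16.1, 15.5 and 17.9 CPM in MODP and 9.79, 10.2 and 12.7 CPM in MOP, and fell by 0.60 ± 0.13 (SE) on the log2 scale (edgeR adjusted p = 0.011). Within a library, P2ry1 stood at 0.504 to 0.754 times the level of P2ry2 per kilobase in MODP and at 2.83 to 3.41 times in MOP, so the order of the pair was reversed. The ADP receptor genes P2ry12 and P2ry13, which mark microglia and other macrophages, were at 0.281 to 1.60 and 1.05 to 3.39 CPM over all libraries, differences short of the threshold (edgeR adjusted p = 0.98 and 0.40). P2ry4, another receptor for UTP, had 4 reads in all. The call of P2ry14 was lost without replicate 1 or 3 of either group (edgeR adjusted p 0.099 to 0.14) and narrowly with DESeq2 and upper-quartile scaling (adjusted p = 0.053 and 0.051), and that of P2ry2 without MOP replicate 1 (edgeR adjusted p = 0.052). The antisense-strand gene Gm37035 shares 23.1% of the exon bases of P2ry1; without a known strand setting its reads cannot be told apart there.

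Adenosine receptors changed in both directions, like those for nucleotides. Adora2a and Adora2b both raise cyclic AMP, the first with high affinity for adenosine and the second with low affinity. Adora2b had 13, 14 and 7 reads in MODP replicates 1 to 3 and 122, 122 and 134 reads in MOP, or 1.07, 1.32 and 0.492 CPM against 8.98, 7.81 and 10.2 CPM. This 9.52-fold rise (log2 3.25 ± 0.31 SE, edgeR adjusted p = 0.00039) was the largest among the tested members. Adora2a was at 4.77, 6.30 and 3.72 CPM in MODP and 2.95, 2.37 and 0.986 CPM in MOP, and fell by 1.22 ± 0.38 (SE) on the log2 scale (edgeR adjusted p = 0.042). Every MODP library was above every MOP library, though MOP replicate 3 was far below the other MOP libraries. Per kilobase, Adora2b was at 0.219 to 0.372 times the level of Adora2a in MODP and at 5.06 to 17.1 times in MOP.

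Adora3, an adenosine receptor known for its part in mast cell degranulation, was at 2.14, 0.847 and 1.48 CPM in MODP and 6.11, 3.78 and 5.61 CPM in MOP (log2 1.78 ± 0.34 SE, edgeR adjusted p = 0.0061). Tmigd3 shares 20.9% of its exon bases on the same strand and also rose, from 0.281 to 0.376 CPM in MODP to 0.896 to 1.18 CPM in MOP (edgeR adjusted p = 0.017). Adora1 had 4 reads in all. The call of Adora2a was lost on leaving out MODP replicate 1, MODP replicate 2, MOP replicate 2 or MOP replicate 3 (edgeR adjusted p 0.077 to 0.10) and without replicate 2 of both groups (edgeR adjusted p = 0.11), while Adora2b and Adora3 were called in all 14 alternative fits.

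Among the receptors for sphingosine 1-phosphate, S1pr4 rose and S1pr3 fell. S1pr4, which is largely restricted to blood cells, was at 21.1, 26.2 and 20.5 CPM in MODP and 47.2, 39.3 and 48.8 CPM in MOP (log2 1.00 ± 0.12 SE, edgeR adjusted p = 0.00088). S1pr3 was at 20.4, 18.4 and 23.8 CPM in MODP and 12.6, 12.3 and 14.6 CPM in MOP, and fell by 0.67 ± 0.13 (SE) on the log2 scale (edgeR adjusted p = 0.0054). Per kilobase, S1pr4 exceeded S1pr3 in every library, by 1.61 to 2.65 times in MODP and 5.97 to 7.01 times in MOP.

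S1pr2, known as the receptor that repels osteoclast precursors from blood, was at 18.0, 16.4 and 17.8 CPM in MODP and 20.7, 20.1 and 21.5 CPM in MOP. The groups did not overlap, but the difference did not pass (log2 0.25 ± 0.09 SE, edgeR adjusted p = 0.060); blocking on the replicate number brought it past (edgeR adjusted p = 0.042). S1pr1, the receptor that draws cells towards blood, was at 2.63, 5.83 and 2.11 CPM in MODP and 5.45, 5.70 and 5.46 CPM in MOP (edgeR adjusted p = 0.19). The MOP libraries agreed closely and MODP replicate 2 was as high as they were. S1pr5, a receptor of natural killer cells, was below the filter with 3, 14 and 2 reads in MODP and 2, 10 and 2 reads in MOP, highest in replicate 2 of each group.

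Of the 6 receptors for lysophosphatidic acid only 3 were tested. All 3 passed, beside 31.2% of all tested genes in either direction, but the calls of Lpar5 and Lpar6 did not hold in every alternative fit. Lpar2 was at 21.5, 24.2 and 21.5 CPM in MODP and 13.5, 13.8 and 13.3 CPM in MOP, and fell by 0.72 ± 0.09 (SE) on the log2 scale (edgeR adjusted p = 0.0012). Lpar5 was at 8.39, 7.15 and 9.35 CPM in MODP and 14.8, 10.5 and 16.3 CPM in MOP (log2 0.73 ± 0.19 SE, edgeR adjusted p = 0.019). Lpar6 had the smallest change of the 3, at 26.9, 26.9 and 27.1 CPM in MODP and 36.6, 32.9 and 30.1 CPM in MOP (log2 0.30 ± 0.09 SE, edgeR adjusted p = 0.033). It lies within Rb1 on the other strand and shares 7.56% of its exon bases with it, and Rb1 rose by log2 0.69 (edgeR adjusted p = 0.0036). Relative to Lpar2 in the same library, Lpar5 per kilobase went from 1.14 to 1.67 times in MODP to 2.93 to 4.71 times in MOP. Lpar1, Lpar3 and Lpar4 had 18, 1 and 14 reads in all. The call of Lpar5 was lost without MODP replicate 1 and without MOP replicate 1 or 3 (edgeR adjusted p 0.062 to 0.077). That of Lpar6 was lost on leaving out MODP replicate 1, MODP replicate 3, MOP replicate 1 or MOP replicate 2 (edgeR adjusted p 0.079 to 0.12), without replicate 2 of both groups (edgeR adjusted p = 0.073), under upper-quartile scaling (edgeR adjusted p = 0.063) and with DESeq2 (adjusted p = 0.059).

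Gpr34, P2ry10 and Gpr174 are receptors for lysophosphatidylserine, a lipid shed by activated and dying cells. Gpr34 had 11, 28 and 10 reads in MODP and 184, 135 and 199 reads in MOP, or 0.904, 2.63 and 0.703 CPM against 13.5, 8.64 and 15.1 CPM. It rose 9.04-fold (log2 3.18 ± 0.48 SE, edgeR adjusted p = 0.0040). The lowest MOP library, replicate 2, was still above the highest MODP library, which was also replicate 2. P2ry10 was at 1.48, 3.10 and 1.05 CPM in MODP and 6.26, 6.28 and 7.28 CPM in MOP (log2 1.84 ± 0.35 SE, edgeR adjusted p = 0.0060). Its close copy P2ry10b, at 0.211 to 1.79 CPM, and Gpr174, at 1.27 to 4.12 CPM over all libraries, stayed short of the threshold (edgeR adjusted p = 0.34 and 0.46). Of the 31-base words of P2ry10, 6.02% occur in other genes, most of all in P2ry10b. Gpr55, a receptor for lysophosphatidylinositol, had 18 reads in all.

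Prostaglandin E2 acts through the products of Ptger1 to Ptger4, of which those of Ptger2 and Ptger4 raise cyclic AMP and that of Ptger3 lowers it. Ptger3 was at 6.41, 5.55 and 6.33 CPM in MODP and 15.5, 7.94 and 14.4 CPM in MOP (log2 1.04 ± 0.25 SE, edgeR adjusted p = 0.015). Most of the difference lay in MOP replicates 1 and 3, and the call was lost without either of them or without replicate 1 or 3 of MODP (edgeR adjusted p 0.053 to 0.064). Ptger2 was at 7.73, 6.49 and 4.85 CPM in MODP and 8.54, 9.73 and 9.56 CPM in MOP. This fell short of the threshold (log2 0.55 ± 0.19 SE, edgeR adjusted p = 0.059), but passed when replicates were paired as a block (edgeR adjusted p = 0.039), without a filter on low counts (edgeR adjusted p = 0.046) and without MODP replicate 1 (edgeR adjusted p = 0.042). Ptger4 was at 25.2, 26.6 and 16.4 CPM in MODP and 30.0, 29.8 and 21.8 CPM in MOP. Replicate 3 was the lowest of each group, and the difference did not pass without the block (log2 0.27 ± 0.21 SE, edgeR adjusted p = 0.39) and passed with it (edgeR adjusted p = 0.031).

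Ptger1 had the most reads of this class, at 64.5, 64.4 and 58.5 CPM in MODP and 81.9, 80.7 and 80.4 CPM in MOP (log2 0.38 ± 0.06 SE, edgeR adjusted p = 0.0030). Its values are uncertain, since 71.0% of its exon bases are shared with other genes, and how many of its reads came from them was not tested.

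Cysltr1, the main receptor for cysteinyl leukotrienes on macrophages, basophils and mast cells, was at 3.70, 3.57 and 4.92 CPM in MODP and 8.69, 7.81 and 7.51 CPM in MOP. The groups stood clearly apart (log2 0.97 ± 0.19 SE, edgeR adjusted p = 0.0057), and the call was kept in all 14 alternative fits. Cysltr2 was below the filter with 28 reads.

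Among the receptors of the proton-sensing family, which become active as the medium turns acid, 1 changed. Gpr65 was at 30.6, 31.7 and 30.5 CPM in MODP and 46.4, 38.2 and 42.9 CPM in MOP (log2 0.46 ± 0.09 SE, edgeR adjusted p = 0.0056). The antisense-strand gene Gm47566 shares 24.7% of its exon bases. Gpr132 was at 24.0, 22.7 and 20.4 CPM in MODP and 18.6, 21.6 and 16.1 CPM in MOP, where the groups overlapped (edgeR adjusted p = 0.17). Gpr4, a gene of endothelial cells, had 24 reads, 11 of them in MODP replicate 2.

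Gpr183 and Gpr35 rose among the receptors for oxysterols and other metabolites. Gpr183, which guides osteoclast precursors and immune cells along oxysterol gradients, was at 10, 7.81 and 4.92 CPM in MODP and 26.6, 17.3 and 16.5 CPM in MOP (log2 1.41 ± 0.30 SE, edgeR adjusted p = 0.014). MOP replicate 1 was well above the other 2 MOP libraries. Without replicate 2 of both groups the call was lost (edgeR adjusted p = 0.067), while the 6 fits without 1 library gave edgeR adjusted p 0.017 to 0.048. Gpr35, a receptor for which tryptophan metabolites and lysolipids have been proposed as ligands, was at 3.54, 3.76 and 1.97 CPM in MODP and 20.5, 11.7 and 17.7 CPM in MOP, 5.43-fold higher (log2 2.44 ± 0.30 SE, edgeR adjusted p = 0.0013). Gpr84, a receptor for medium-chain fatty acids, was at 3.02 to 6.87 CPM over all libraries and Gpr18 at 1.69 to 2.82 CPM, and neither passed (edgeR adjusted p = 0.69 and 0.87). Gpr84 was highest in replicate 2 of each group, the libraries with the highest sums of neutrophil genes, whose part in this was not tested, and it shares 39.5% of its exon bases with Gm49482.

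Orphan receptors were led by Gpr141, which was at 37.1, 38.5 and 30.1 CPM in MODP and 124, 98.5 and 102 CPM in MOP (log2 1.62 ± 0.12 SE, edgeR adjusted p = 0.00026), the smallest adjusted p among the members. Gpr146 was at 18.4, 17.7 and 17.4 CPM in MODP and 22.5, 24.7 and 24.4 CPM in MOP (log2 0.42 ± 0.09 SE, edgeR adjusted p = 0.0073). Both groups were tight, and neither call was lost in any alternative fit. Gpr160 was at 52.8, 58.9 and 58.1 CPM in MODP and 67.1, 64.2 and 69.6 CPM in MOP, a small rise (log2 0.24 ± 0.07 SE, edgeR adjusted p = 0.027) that was lost under upper-quartile scaling (edgeR adjusted p = 0.064) and without replicate 1 or 3 of either group (edgeR adjusted p 0.055 to 0.099). Gpr171 went the other way, at 15.5, 13.5 and 14.5 CPM in MODP and 8.10, 8.26 and 8.27 CPM in MOP, and fell by 0.83 ± 0.11 (SE) on the log2 scale (edgeR adjusted p = 0.0016). The 3 MOP libraries were nearly equal.

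The other 9 tested orphan or unclassed members did not pass. Gpr15, at 0.740, 0.847 and 0.422 CPM in MODP and 0.884, 1.15 and 1.06 CPM in MOP, had groups that did not overlap (edgeR adjusted p = 0.23). Over all tested genes, 23.8% did not overlap with MOP higher and 23.8% with MOP lower. Gpr19 averaged 8.28 CPM and Gpr157 averaged 6.54 CPM over all libraries. Gpr3, Gpr21, Gpr22, Gpr82 and Gpr85 averaged 0.689 to 1.26 CPM.

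The 6 Gpr genes that do not encode classical receptors were all tested. Of these 3 rose, 1 of them by at least 2-fold, and the other 3 did not pass. Over all tested genes 16.3% were higher, and 3.84% were higher by at least 2-fold. Gpr108 and Gpr107, a pair of related Golgi proteins, ranged from 57.1 to 60.3 and from 38.3 to 43.9 CPM in MODP, and from 68.5 to 71.1 and from 45.7 to 52.4 CPM in MOP, rises of log2 0.25 ± 0.06 and 0.27 ± 0.08 (SE, edgeR adjusted p = 0.013 and 0.041). Gpr155, a sensor of cholesterol in the lysosomal membrane, was at 1.73, 3.48 and 1.27 CPM in MODP and 4.57, 5.89 and 3.72 CPM in MOP (log2 1.16 ± 0.37 SE, edgeR adjusted p = 0.046), with replicate 2 the highest of each group. Gpr89, a regulator of Golgi pH, was at 32.1, 32.3 and 41.5 CPM in MODP and 29.0, 31.1 and 30.2 CPM in MOP, apart but not past the test (edgeR adjusted p = 0.15), and it shares 27.9% of its exon bases with Pdzk1 and Gja5. Gpr137 was at 18.3 to 19.8 and 20.8 to 21.6 CPM (edgeR adjusted p = 0.24), and Gpr180 at 19.0 to 22.7 and 18.6 to 22.3 CPM (edgeR adjusted p = 0.84). The call of Gpr155 was kept in 1 of the 6 fits without a library, the one lacking MODP replicate 2 (edgeR adjusted p from 0.0036 to 0.15 in the 6), and that of Gpr107 in 1, without MODP replicate 1 (edgeR adjusted p 0.043 to 0.14). Upper-quartile scaling also ended both (edgeR adjusted p = 0.051 and 0.090), DESeq2 (adjusted p = 0.057) and leaving out replicate 2 of both groups (edgeR adjusted p = 0.15) ended that of Gpr107, and leaving out MOP replicate 1 ended that of Gpr108 (edgeR adjusted p = 0.060).

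Several members lie side by side, by their order in RefSeq. P2ry6 and P2ry2 are neighbours on chromosome 7 and moved in opposite directions, so that P2ry6 per kilobase went from 0.0321 to 0.0833 times the level of P2ry2 in MODP to 0.405 to 0.544 times in MOP. On chromosome 3, Gpr171, P2ry14, P2ry13 and P2ry12 lie in this order within or overlapping Med12l on its other strand. Gpr171 fell, P2ry14 rose, and P2ry13 and P2ry12 did not pass the test; Med12l itself fell from between 6.11 and 6.58 CPM to between 3.34 and 4.29 CPM (edgeR adjusted p = 0.017). Gpr18 and Gpr183 adjoin on chromosome 14 within introns of Ubac2, and Gpr183 per kilobase was at 1.44 to 2.34 times the level of Gpr18 in MODP and 3.18 to 6.69 times in MOP. On the X chromosome, Gpr34 adjoins Gpr82 within introns of Cask, and P2ry10, P2ry10b and Gpr174 adjoin each other. Gpr34 stood at 1.64 to 2.57 times the level of Gpr82 per kilobase in MODP and at 10.1 to 13.2 times in MOP. Cask itself rose by log2 0.52 ± 0.07 (SE, edgeR adjusted p = 0.0012). These pairs were chosen after their values were seen, and their ratios are a description.

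**Figure D3:**
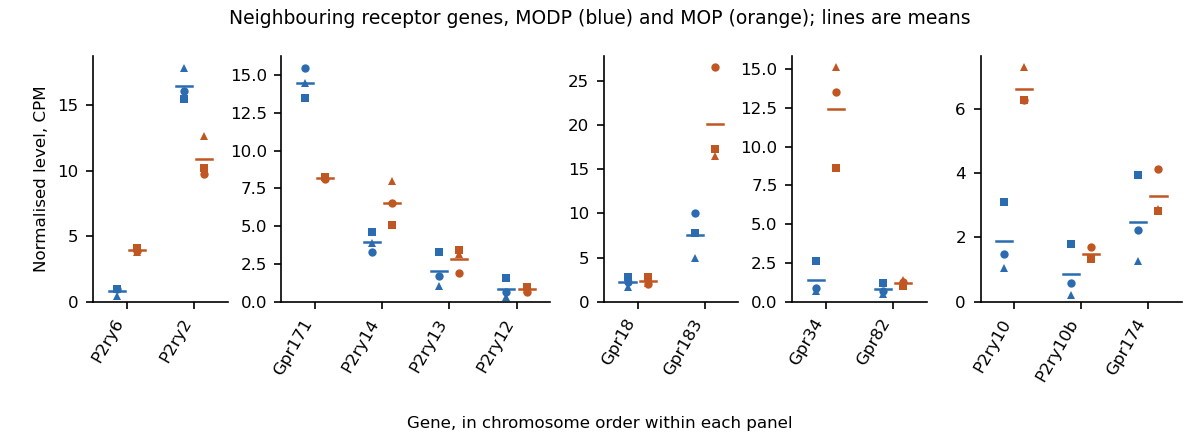
CPM (vertical axis, from 0, with its own scale in each panel) of neighbouring receptor genes in chromosome order (horizontal axis), with 1 point per library, circles, squares and triangles for replicates 1, 2 and 3, and lines for group means; MODP is blue and MOP orange. P2ry6 is higher and P2ry2 lower in MOP, and Gpr171 is lower where P2ry14 is higher.

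Several higher members were, like the basophil and mast cell list, lowest in replicate 2 of the MOP group. The sum of that list in MOP replicate 2 was 68.9% of the mean of MOP replicates 1 and 3. For Ptger3 this share was 53.0%, for Gpr34 60.4%, for Gpr35 61.0%, for Adora3 64.4%, for Lpar5 67.5% and for P2ry14 69.7%. In MODP, where replicate 2 held the list at 198% of the mean of the other libraries, Gpr34 was at 328%, Gpr35 at 137% and P2ry14 at 129%, while Adora3, Lpar5 and Ptger3 went against the list, at 46.9%, 80.6% and 87.1%. P2ry6, Gpr155, Gpr107 and Gpr146 were higher in MOP replicate 2 than the mean of MOP replicates 1 and 3, at 107%, 142%, 112% and 105%. Cysltr1, P2ry10 and Gpr141 stood at 96.5%, 92.7% and 87.2%. Adora2b and P2ry1 stood at 81.6% and 84.9%, and at 169% and 124% in MODP replicate 2. The monocyte and macrophage list, whose sum went from between 3402.8 and 4688.4 CPM in MODP to between 9011.0 and 10034.0 CPM in MOP, stood at 96.9% in MOP replicate 2. The megakaryocyte and platelet list stood at 75.1% there and at 192% in MODP replicate 2, close to the basophil and mast cell list. In MODP replicate 2 every list except that of stem and early progenitor genes (91.6%) was above the mean of MODP replicates 1 and 3. Being high there was thus not particular to the basophil and mast cell list. In 13 of the 22 higher members MOP replicate 2 was the lowest of its group, against 46.7% of all genes higher in MOP. The part of basophil or mast cell RNA in these differences was not tested, and fewer cells of a type cannot be told apart from less RNA per cell in sorted bulk samples.

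**Figure D4:**
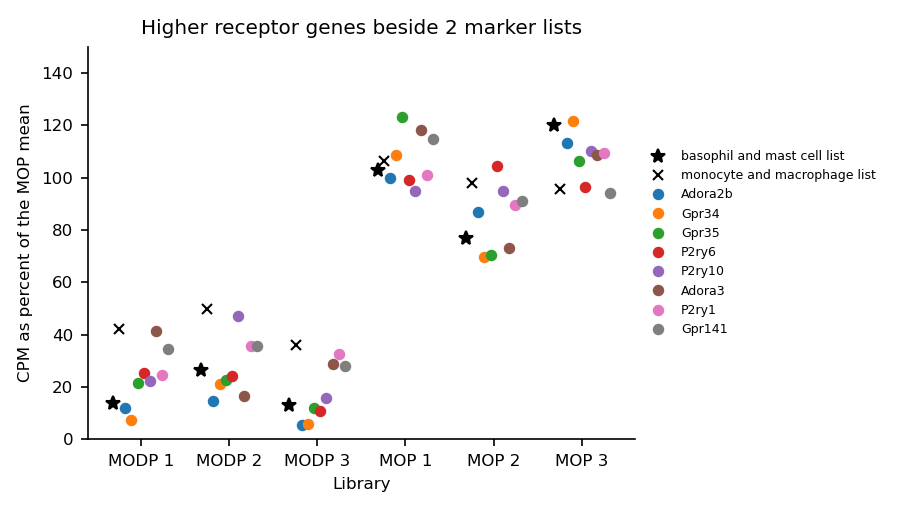
CPM in each library (horizontal axis) as percent of the MOP mean (vertical axis) for the 8 members that were at least 3-fold higher in MOP and, in black, for the summed basophil and mast cell list (stars) and the summed monocyte and macrophage list (crosses). In MOP replicate 2, Gpr34, Gpr35 and Adora3 lie below the star, while P2ry6, P2ry10, P2ry1 and Gpr141 lie nearer to the cross. Adora2b lies between the star and the cross.

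The 35 members below the filter had 1 to 60 reads over all 6 libraries, and 20 members had 10 or fewer. Among those 20 were Adora1, Gpr1, Gpr12, Gpr33, Gpr37, Gpr39, Gpr50, Gpr61, Gpr62, Gpr63, Gpr75, Gpr119, Gpr135, Gpr152, Gpr176, Lpar3 and P2ry4, many of them genes of brain or gut. Reads were seen in MODP alone for 3 of the 35 (Gpr37 and Gpr119 among them) and in MOP alone for 7 (Gpr33, Gpr50, Gpr152, Gpr176 and Lpar3 among them), with few reads each, so no difference was detectable at this depth. The remaining 15 were Cysltr2, Gpr4, Gpr25, Gpr27, Gpr55, Gpr149, Gpr151, Gpr153, Gpr161, Gpr162, Gpr179, Gpr182, Lpar1, Lpar4 and S1pr5. Gpr182, a receptor of endothelial cells, had 26 of its 60 reads in MODP replicate 2, and Gpr153 had 21 of 47 there. Of the 20 members under 1 CPM with more than 10 reads, 10 were highest in MODP replicate 2, the library that also had the most reads of Col1a1 and Col1a2 and the highest sums of neutrophil and of T and NK cell genes; the part of such cells in these reads was not tested.

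**Figure D5:**
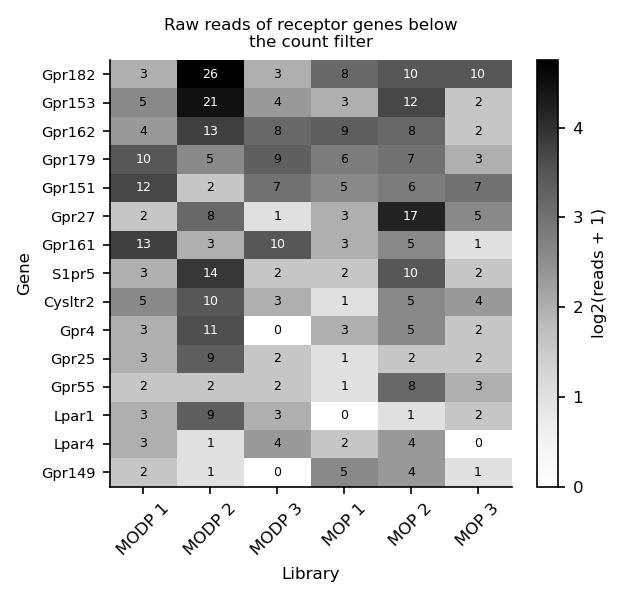
Raw reads per library (columns; shading is log2 of reads plus 1) for the 15 members below the count filter that had more than 10 reads (rows). MODP replicate 2 holds the largest number for Gpr182, Gpr153, Gpr162, S1pr5, Cysltr2, Gpr4, Gpr25 and Lpar1.

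The partners of these receptors were followed in 6 lists: enzymes and transporters of the ligands, related receptors outside the rule, G protein subunits, and proteins that switch receptors off or carry the signal on. Among 121 tested genes 34 rose (28.1%), 14 fell (11.6%) and 73 stayed short of the threshold, against 16.3% higher and 14.9% lower of all tested genes, with a median log2 fold change of 0.17 against -0.01. With the replicate number as a block 46 were higher and 23 lower, against 2724 and 2544 of all 12850 tested genes. The count of higher genes was 21 without MOP replicate 1 and 22 without MOP replicate 3, and that of lower genes 9, 9, 6 and 8 without MODP replicate 1, MODP replicate 3, MOP replicate 1 and MOP replicate 3. Over all tested genes the same fits gave 1281 to 1603 higher and 1036 to 1349 lower, in place of 2095 and 1913. Counts on single lists rest on few genes and moved by over 1.5 times in some of these fits.

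On the list of S1P and LPA handling, 5 of 13 tested genes were higher (38.5%) and 2 lower (15.4%), beside 16.3% and 14.9% of all tested genes. Spns2, which exports S1P from cells, fell from 44.8 ± 4.33 to 13.9 ± 2.87 CPM (mean ± SD, n = 3; log2 -1.68 ± 0.15 SE, edgeR adjusted p = 0.00035). Sgpl1, the lyase that destroys S1P, and Asah1, the lysosomal ceramidase, rose from 110 ± 7.65 to 168 ± 8.85 CPM and from 114.5 ± 2.52 to 175 ± 14.5 CPM (edgeR adjusted p = 0.00057 for both). Sphk1, a kinase that makes S1P, rose as well, from a mean of 6.70 to 21.8 CPM (log2 1.72 ± 0.38 SE, edgeR adjusted p = 0.020). On the nucleotide and adenosine list 4 of 15 were higher and 4 lower (26.7% each). The ATP-gated channel genes P2rx7 and P2rx4 rose, P2rx7 by log2 1.27 ± 0.19 and P2rx4 by log2 0.36 ± 0.09 (SE, edgeR adjusted p = 0.0037 and 0.015). The nucleotidase gene Entpd6 fell by 0.41 ± 0.10 (SE) on the log2 scale (edgeR adjusted p = 0.015). Among 19 eicosanoid and oxysterol enzymes 3 were higher and 1 lower, shares of 15.8% and 5.26%. Alox5ap, which presents arachidonic acid to the leukotriene pathway, rose by log2 0.66 ± 0.11 (SE, edgeR adjusted p = 0.0053). Dpep2, which converts one cysteinyl leukotriene into another, rose by log2 2.05 ± 0.41 (SE, edgeR adjusted p = 0.0072). Its values are uncertain, since 40.4% of its 31-base words occur in other gene entries, most of all in one of the same name. Lta4h, the enzyme of leukotriene B4 synthesis, fell from 869.9 ± 28.6 to 586 ± 69.8 CPM (edgeR adjusted p = 0.0022).

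Among related receptors outside the rule, 4 of 19 were higher (21.1%) and 2 lower (10.5%), near the 16.3% and 14.9% of all tested genes. C3ar1, the receptor for the complement fragment C3a, rose from 0.458 ± 0.321 to 10.3 ± 3.71 CPM (log2 4.40 ± 0.50 SE, edgeR adjusted p = 0.0011). The thrombin receptor gene F2rl3 fell from 8.26 ± 0.599 to 3.16 ± 0.376 CPM and the thromboxane receptor gene Tbxa2r from 1.76 ± 0.688 to 0.229 ± 0.155 CPM (edgeR adjusted p = 0.0011 and 0.0058). Of 22 G protein subunits 6 were higher (27.3%) and 2 lower (9.09%). Gnai2, the inhibitory alpha subunit most abundant in leukocytes, rose by log2 0.40 ± 0.05, Gnb2 by 0.39 ± 0.05 and Gng2 by 0.38 ± 0.07 (SE, edgeR adjusted p = 0.0014, 0.0014 and 0.0055). On the list of desensitization and effector genes 12 of 33 were higher (36.4%) and 3 lower (9.09%). Plcb1, a phospholipase activated by G proteins, rose from 12.2 ± 0.840 to 37.5 ± 6.61 CPM (log2 1.62 ± 0.14 SE, edgeR adjusted p = 0.00029). Prex1 and Arhgef1, which encode guanine nucleotide exchange factors, rose too, Prex1 by log2 0.72 ± 0.08 and Arhgef1 by log2 0.56 ± 0.06 (SE, edgeR adjusted p = 0.00062 and 0.00064). Plcb2, of the same family as Plcb1, was among the 3 lower genes, with a mean of 288 CPM in MODP and 243 CPM in MOP (log2 -0.24 ± 0.06 SE, edgeR adjusted p = 0.018).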

How the data were processed

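TriZol RNA from FACS-sorted mouse marrow progenitors gave 6 TruSeq libraries, per the labels. The deposited table holds unnormalized counts of reads for each Ensembl identifier, from every column of the table, all of them used. TopHat 1.4 and HTSeq are the tools in the submitters' processing notes; genome build, annotation and strand setting were not given in the sources used here. Groups came from the cell type label. Columns were matched to samples by the leading number and the ending of the title; for the last library of each group the column says WT3 where the title says WT1.

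Symbols came from GENCODE M21, which named 20840 of 22271 identifiers, and exon lengths, overlaps and shared 31-base words from the same release. Genes were filtered with filterByExpr, scaled by TMM and tested with edgeR 4.0.16 (R 4.3.3) by its robust quasi-likelihood test with group as the sole factor; DESeq2 1.42.0 was an alternative. The standard error is the absolute log2 fold change divided by the square root of the F statistic. The tests were checked on simulated data. Members past the threshold, at 10 CPM or more, or with groups that do not overlap were named. Of each list of partners, up to 3 genes past the threshold were named by smallest adjusted p, and Sphk1 and Plcb2 besides. A few members and overlapping genes are not reported here. Members and lists were chosen with earlier results of these data known. Within a group, counts of any 2 libraries differed by a chi-square of 7.87 to 37.6 per degree of freedom, so none repeats another.

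Pairing was checked by correlating deviations from the group means over 9351 genes. The correlation was 0.59, 0.61 and 0.51 between same-numbered columns and -0.45 to 0.05 between the rest. Same-numbered columns were therefore read as pairs, but the main test left this pairing out. The fit with a replicate block by column number used it, and called 2724 genes higher and 2544 lower in place of 2095 and 1913.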

Additional observations from a re-analysis of the deposited data

How the results depend on the processing

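The 27 calls were refitted in 14 alternative ways: with DESeq2, with 2 other scalings, with 2 other filters, with the replicate number of the columns or of the titles as a block, without each library in turn, and without replicate 2 of both groups. In all of these 16 calls were kept in the same direction (13 higher and 3 lower), and 11 were lost at least once. Over the fits that left out libraries, 14 to 23 members were higher and 4 to 5 lower, and of the partner genes 21 to 45 were higher and 6 to 17 lower. Of all tested genes 1281 to 2524 were higher and 1036 to 2275 lower in these fits. With the replicate block by column number, 25 members were higher and 5 lower, and 46 and 23 partner genes, beside 2724 and 2544 of all tested genes. The block ended none of the 27 calls, and beside Ptger2, Ptger4 and S1pr2 it added no call among the named members. Blocking on the title number gave 24 higher members and 6 lower, beside 2517 and 2309 of all tested genes. Upper-quartile scaling moved the median log2 fold change of all tested genes to -0.06 and left 22 of the 27 calls. Taking in Gpr symbols that end in a letter left 22 and 5. Gpr180, never called, changed sign without MODP replicate 1 (log2 0.03) and without MOP replicate 2 (log2 0.03), in a range of -0.11 to 0.03 without 1 library. With 3 libraries a group, depth limits the members under 1 CPM most: 1 CPM was 10.6 to 15.6 reads.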

Other observations

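Symbols with a letter after the Gpr number fell outside the rule. Gpr137b, a lysosomal protein related to Gpr137, was at 3.54, 7.62 and 2.53 CPM in MODP and 5.45, 7.68 and 5.99 CPM in MOP, with groups that overlapped (edgeR adjusted p = 0.38). Its values are uncertain because 50.2% of its 31-base words occur in another gene, such as Gpr137b-ps. Gpr141b, the neighbour of Gpr141, had 0 reads in each MODP library and 6, 9 and 10 reads in MOP, too few for the test. Gpr137c and Gpr31b were low in every library.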
